A study of Homo sapiens with 7 samples.

Results

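The genes described here are 8 feedback inhibitors of the ERK pathway, found as the rows of the HepG2 expression table that hold the symbols SPRY1, SPRY2, SPRY4, SPRED1, SPRED2, DUSP4, DUSP5 and DUSP6. All 8 symbols were found, each on 1 row, among 30032 loci, and all 8 are among the 13265 named genes used for comparison, which have a locus of their own whose listed start is taken as the transcription start site (TSS). HepG2 is a human liver cancer cell line with hepatocyte-like gene expression, and the labels name no treatment. The study has 7 samples of this line: native MNase-Seq, in which nucleosomal DNA of chromatin without crosslinking was sequenced, ChIP-Seq from crosslinked and sonicated chromatin of 3 activation marks (H3K4me3, H3K9ac, H3K27ac) and of the repressive marks H3K9me3 and H3K27me3, and RNA-Seq of rRNA-depleted total RNA. Each assay has 1 sample, so no test across replicates was possible and no P value is given.

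Growth factor receptors signal through RAS, the RAF kinases, MEK and ERK, and ERK signalling induces genes whose products dampen the same pathway. Sprouty proteins (SPRY) act near the receptors and RAS, and Spred proteins (SPRED) lower active RAS with neurofibromin and restrain RAF. The dual-specificity phosphatases (DUSP) remove the activating phosphates from ERK itself. Because their transcription follows ERK activity, the mRNAs of these genes are widely read as an output of the pathway. H3K4me3, H3K9ac and H3K27ac mark active promoters, and H3K27ac without H3K4me3 is common at enhancers. H3K27me3 is deposited by Polycomb proteins at silent or poised genes, and H3K9me3 is typical of heterochromatin.

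The group was chosen by symbol, and SPRY4 in it was selected on a measured value, its number of trivalent nucleosomes, which are nucleosome positions that carried H3K4me3, H3K9ac and H3K27ac and neither repressive mark. Its trivalent count is therefore a description and supports nothing. Within 2 kb of the TSS SPRY4 had 12, the highest count, which 5 genes reached; 12 genes had 11 and 0 genes had more than 12. The hepatocyte label was borne out by the markers: ALB, AFP and APOA2 had a mean FPKM of 10011, 3798 and 5209, while PTPRC was listed at 0 and PECAM1 and COL1A1 at 0.137 and 0.164. COL1A2 had 1.16.

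Expression is given as FPKM, fragments scaled to transcript length and to the mapped fragments of the library. The authors deposited it in 2 columns of the RNA-Seq sample, called run 1 and run 2 here. An FPKM of at least 1 is called expressed. SPRED2, which holds back RAS and RAF, had the highest level of the 8 genes, at 19.2 FPKM in run 1 and 19.5 in run 2. DUSP6, the cytoplasmic phosphatase that is selective for ERK, followed with 14.3 and 14.4. SPRY4 had 13.2 and 12.2. These 3 genes had a higher mean FPKM than 83.5%, 78.9% and 77.0% of all genes. SPRY1 reached 8.90 FPKM in run 1 and 9.44 in run 2. SPRED1, whose protein brings neurofibromin to the membrane, had 5.03 and 5.01. SPRY2 had 4.71 and 4.33. These 3 stood in the middle of the group, above 72.1%, 63.9% and 62.6% of genes. DUSP5, a nuclear ERK phosphatase, gave 1.57 FPKM in run 1 and 1.98 in run 2. DUSP4, a nuclear phosphatase of ERK and other MAP kinases, had 0.179 and 0.363. Both were thus far below the other members, and DUSP4 was the only one of the 8 under an FPKM of 1 in both runs.

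In all, 7 of the 8 genes had a mean FPKM of at least 1, against 47.7% of all genes. Their median FPKM was 7.10, against 0.591 over all genes and 12.1 over the 6328 expressed genes. The members' median was above 68.3% of the genes compared, but above only 45.7% of the loci with status OK in the deposited table. The status OK set leaves out loci with status NOTEST, which the genes compared include, and takes in unnamed and shared loci. Whether the median lay above or below the middle thus depended on the genes it was set against. Run 2 was 0.919 to 1.27 times run 1 for the 7 expressed members and 2.03 times run 1 for DUSP4. In the order of levels, no neighbouring pair had overlapping run values, and the closest were SPRED1 and SPRY2. The runs are of 1 sample, and whether they are separate cultures is not stated, so the order was not tested.

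**Figure D1:**
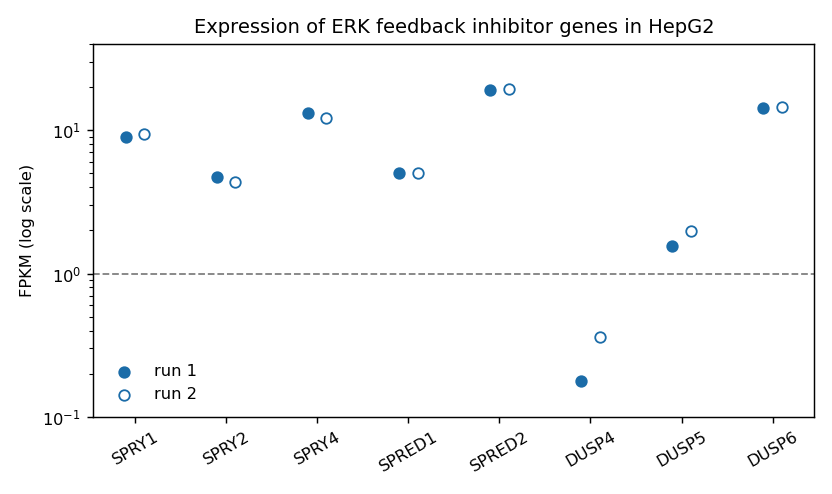
FPKM (log scale) of the 8 genes in run 1 (filled points) and run 2 (open points) of the RNA-Seq sample, with the limit of 1 as a dashed line. DUSP4 lies below the line in both runs, DUSP5 just above it at 1.57 and 1.98, and the other 6 genes between 4.33 and 19.5.

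The chromatin marks were read at single nucleosome positions. A position is a stretch of 140 bp that was called from native MNase-Seq, and it is marked where the authors called a ChIP-Seq peak at it. The lists hold no peak height, so a position is either marked or not. Called positions can overlap, as some do at SPRY1 and SPRY2, and each was counted. Coordinates are on hg19, the build named in the submitters' processing notes. Over the 8 loci with 10 kb on either side there were 2361 positions. Of these, 120 (5.08%, exact 95% binomial interval 4.23 to 6.05) carried at least 1 mark. Without the selected SPRY4 it was 104 of 2173, or 4.79% (3.93 to 5.77), against 2.05% over all genes and 2.97% over expressed genes. Over all 8 loci the trivalent mark was the most frequent, at 56 positions, or 44 without SPRY4. It was followed by H3K27ac alone at 18, H3K4me3 alone at 12, H3K4me3/H3K9ac at 10 and H3K9ac/H3K27ac at 7. H3K27me3 alone was at 5 positions and H3K9me3 alone at 4. Either repressive mark, with or without others, was at 11 positions, or 0.466% (0.233 to 0.832). The share was 0.340% over all genes and 0.171% over expressed genes. Intervals cover counting error only, and neighbouring positions are not independent, so they are too narrow.

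Around the TSS (2 kb on either side), 6 of the 8 genes had at least 1 trivalent nucleosome, against 42.9% of all genes and 84.8% of expressed genes. The same 6 had at least 3, against 27.9% of all genes and 56.4% of expressed genes. These 6, which include the selected SPRY4, are the Sprouty and Spred genes and DUSP6. They had from 3 to 12, and DUSP4 and DUSP5 had 0. Of the 136 positions in these windows 45 were trivalent, or 33.1% (25.3 to 41.7), against 7.81% over all genes and 16.1% over expressed genes. Without SPRY4, which was picked for its count, the share was 27.7% (19.9 to 36.7). The median was 6 trivalent nucleosomes per member and 5 without SPRY4, against 0 over all genes and 3 over expressed genes. With a window of 1 kb only 3 of the 8 genes, SPRY2, SPRY4 and SPRED2, had at least 3. A window of 1 kb holds fewer positions, and the share of all genes was not computed for it.

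**Figure D2:**
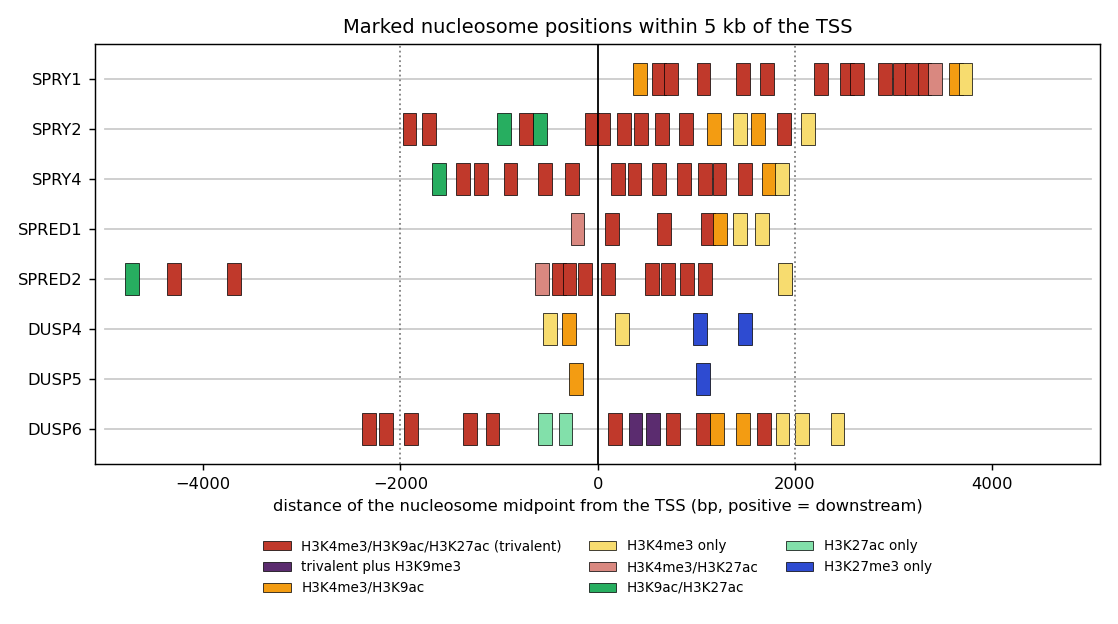
Nucleosome positions with a mark up to 5 kb from each TSS, drawn by the distance of their midpoint from the TSS (bp, downstream to the right) and coloured by the set of marks; dotted lines stand at 2 kb. SPRY1 has all its marked positions downstream of the listed TSS, SPRY2, SPRY4, SPRED2 and DUSP6 have trivalent positions on both sides, and DUSP4 and DUSP5 have none but carry H3K27me3 downstream.

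**Figure D3:**
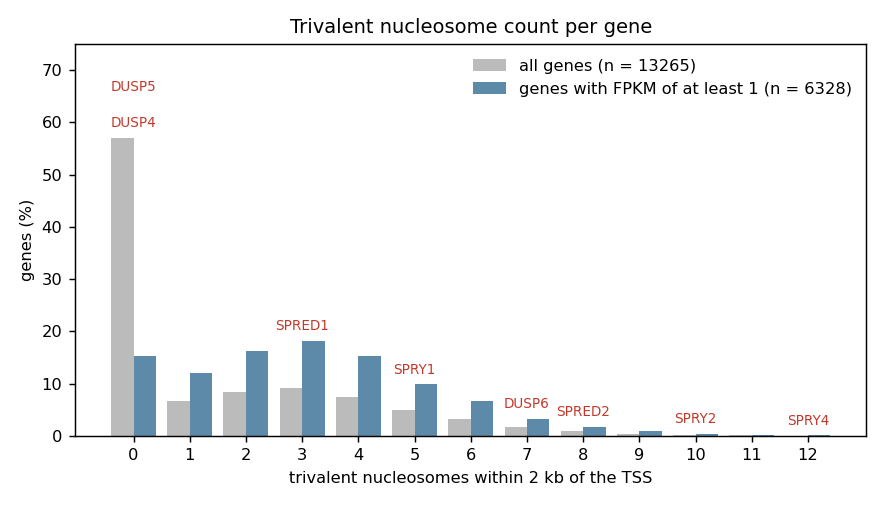
Share of genes (%) by their trivalent nucleosomes around the TSS (2 kb on either side), for all 13265 genes (grey) and the 6328 genes with an FPKM of at least 1 (blue), with the 8 members named at their counts. DUSP4 and DUSP5 stand at 0 and the others from 3 (SPRED1) to 12 (SPRY4).

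SPRY4 is listed on chromosome 5 from 141689992 to 141704620, on the minus strand. Of the 17 positions within 2 kb of its TSS, 15 carried an activation mark and 12 were trivalent, 5 upstream and 7 downstream. Their midpoints ran from 1367 bp upstream to 1493 bp downstream, and the stretch ended in H3K9ac/H3K27ac at 1607 bp upstream and in H3K4me3/H3K9ac and H3K4me3 alone at 1738 and 1873 bp downstream. No position of this stretch was left unmarked, which gave an unbroken run of 15 marked positions. An unnamed locus on the plus strand is listed from 141704759, 139 bp from the SPRY4 TSS, with an FPKM of 2.98 and 3.01. Other unnamed loci without strand are listed with the same coordinates, so the start of each transcript is not known. If the plus-strand transcript starts there, the 5 upstream nucleosomes lie downstream of its start. Which of the transcripts they belong to was not tested. Only 1 other position of the SPRY4 region was marked, with H3K27ac alone, 14775 bp downstream of the TSS and just past the end of the locus. The promoter of SPRY4 is shown because it had the most trivalent nucleosomes of the members within 2 kb of the TSS. The RefSeq table gives the 250 bases before the start at chr5:142324248-142324497 of GRCh38, minus strand. The listed TSS is on hg19, and whether the RefSeq start is the same was not tested. Capitals mark 4 motifs searched on both strands throughout: the ETS-type motif CCGGAA, the TGACG core of the cAMP response element, the GC box GGGCGG and the TATA box TATAAA. Only these exact letters were searched, so shorter or variant sites, such as GGAA without the leading CC, are not marked.
SPRY4: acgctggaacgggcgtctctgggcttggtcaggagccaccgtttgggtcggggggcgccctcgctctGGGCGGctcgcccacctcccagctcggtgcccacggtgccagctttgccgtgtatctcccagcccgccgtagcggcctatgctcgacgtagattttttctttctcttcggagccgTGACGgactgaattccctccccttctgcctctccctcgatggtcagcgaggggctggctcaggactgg
It has 1 GC box and 1 TGACG. Of the 35116 promoters in the table cut to the same length, 42.6% hold the GC box, 21.2% TGACG, 14.5% CCGGAA and 10.7% TATAAA. A match is a run of letters and not a tested binding site.

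The 5 genes whose marks around the TSS were most like those of SPRY4 were PVRL2, FOXQ1, CDC25A, GGPS1 and WEE1. Likeness is the sum of differences in 3 counts (trivalent, other activation-mark and repressive nucleosomes) over 8 bins of 500 bp, in 1 cell line. It was 5 nucleosomes for PVRL2 and FOXQ1, 6 for CDC25A and 7 for GGPS1 and WEE1. The mean FPKM was 27.2 for PVRL2, 44.7 for FOXQ1, 12.5 for CDC25A and 15.2 for WEE1, against 12.7 for SPRY4, and GGPS1 had 11.9 in run 2.

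SPRY2 is listed on chromosome 13 from 80910106 to 80915086, on the minus strand. It had 10 trivalent nucleosomes within 2 kb of the TSS, 4 upstream and 6 downstream, among 18 positions of which 15 were marked. Its trivalent positions began 1908 bp upstream and ended 1889 bp downstream. A position sat on either side of the listed TSS, 56 bp upstream and 59 bp downstream, with midpoints 115 bp apart. That is less than their length of 140 bp, so these 2 calls overlap each other. Only 2.30% of genes had a shorter spacing across the TSS, where the median was 280 bp over all genes and 375 bp over expressed genes. All 16 marked positions of the SPRY2 region lay within 2134 bp of the TSS. Although SPRY2 had more trivalent nucleosomes than 99.4% of expressed genes, its FPKM was below that of 5 of the other members. The RefSeq table holds 3 starts of SPRY2, of which the farthest upstream is shown, as it has all 3 of the motifs ETS core, TGACG and GC box (chr13:80341127-80341376, GRCh38, minus strand).
SPRY2: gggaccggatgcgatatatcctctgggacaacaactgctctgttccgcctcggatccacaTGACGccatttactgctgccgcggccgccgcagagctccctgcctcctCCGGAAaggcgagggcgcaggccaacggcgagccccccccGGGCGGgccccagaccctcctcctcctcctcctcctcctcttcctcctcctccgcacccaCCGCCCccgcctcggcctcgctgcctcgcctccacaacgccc
It has 1 CCGGAA, 1 TGACG and 2 GC boxes, and 70.4% of its bases are G or C, against a median of 58% over all promoters of the table.

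SPRY1 is listed on chromosome 4 from 124317646 to 124327701, on the plus strand. It had 5 trivalent nucleosomes within 2 kb of the TSS and 12 within 5 kb, all downstream. No marked position lay upstream of the TSS. From 431 to 3731 bp downstream, 16 positions in a row carried an activation mark, a longer run than in 99.9% of all genes. Some of these calls overlap each other, and each was counted. The longest run over all genes was 20 positions. A separate group of 5 positions lay 15716 to 17844 bp downstream, past the end of the listed locus, of which 4 carried H3K27ac alone and 1 H3K9ac/H3K27ac. The 2 starts of SPRY1 in the RefSeq table lie 1591 bases apart and are both shown, because the marks of SPRY1 lay downstream of the listed TSS only. The first is at chr4:123396545-123396794 and the second at chr4:123398136-123398385 of GRCh38, both on the plus strand.
SPRY1 first start: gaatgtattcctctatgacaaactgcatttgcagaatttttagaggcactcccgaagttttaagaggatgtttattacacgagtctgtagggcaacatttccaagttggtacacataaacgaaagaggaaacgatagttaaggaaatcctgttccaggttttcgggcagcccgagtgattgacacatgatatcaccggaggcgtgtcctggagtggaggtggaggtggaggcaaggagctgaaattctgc
SPRY1 second start: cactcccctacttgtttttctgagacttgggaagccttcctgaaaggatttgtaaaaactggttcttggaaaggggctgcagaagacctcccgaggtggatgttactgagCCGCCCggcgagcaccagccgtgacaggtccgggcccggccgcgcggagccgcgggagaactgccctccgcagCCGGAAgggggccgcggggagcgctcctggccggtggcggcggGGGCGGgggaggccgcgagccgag
The first has none of the 4 motifs, and 45.6% of its bases are G or C. The second has 1 CCGGAA and 2 GC boxes, with 68% G or C and 24 CpG against 8 in the first. Whether the SPRY1 mRNA in HepG2 comes from one start or the other is not given by the table, which has 1 value per locus.

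By number of positions, the Sprouty genes thus had the longest unbroken runs of activation-marked positions within 5 kb of the TSS among the members. The run was 16 for SPRY1, 15 for SPRY4 and 14 for SPRY2. DUSP6 had 12, SPRED2 9 and SPRED1 7. DUSP4 had 3 and DUSP5 had 1. The median was 2 over all genes and 6 over expressed genes. Overlapping calls were each counted, so this order is not one of length. From the first to the last activation-marked position within 5 kb, breaks included, SPRY1 spanned 3300 bp and SPRY4 3480 bp. SPRY2 spanned 4042 bp, DUSP6 4753 bp and SPRED2 6620 bp. SPRED1 spanned 1873 bp and DUSP4 729 bp.

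SPRED2 is listed on chromosome 2 from 65537931 to 65659656, on the minus strand. It had 8 trivalent nucleosomes within 2 kb of its TSS, 3 upstream and 5 downstream, from 396 bp upstream to 1089 bp downstream. Another 2 trivalent nucleosomes lay 3691 and 4296 bp upstream, next to H3K9ac/H3K27ac at 4721 bp. Within the long gene body, H3K4me3 was not called beyond 1899 bp. Over the locus plus 10 kb, 13 positions farther than 2 kb from the TSS carried H3K27ac and no H3K4me3, the most among the members. They include the position 4721 bp upstream and a position 130919 bp downstream, past the end of the locus. One group lay 47834 to 49339 bp downstream, with H3K9ac/H3K27ac at 2 positions, and another lay 58779 to 60264 bp downstream, with H3K27ac alone at 5. Of the 8 genes 4 (SPRY1, SPRY4, SPRED2 and DUSP6) had at least 1 such distal position, against 29.8% of all genes and 47.4% of expressed genes, a count that grows with the length of the locus. The RefSeq table holds 2 starts of SPRED2, 65821 bases apart, and both are shown because they differ in base composition. The marked positions on either side of that distance were at 60264 and 92294 bp from the listed TSS, though the distances come from different builds. The upstream start is at chr2:65432600-65432849 and the downstream one at chr2:65366779-65367028 of GRCh38, minus strand.
SPRED2 upstream start: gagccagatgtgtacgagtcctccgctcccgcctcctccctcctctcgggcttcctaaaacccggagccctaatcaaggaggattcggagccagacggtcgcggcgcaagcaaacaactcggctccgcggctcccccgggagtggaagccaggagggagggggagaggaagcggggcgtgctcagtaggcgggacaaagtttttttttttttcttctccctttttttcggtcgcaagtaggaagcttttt
SPRED2 downstream start: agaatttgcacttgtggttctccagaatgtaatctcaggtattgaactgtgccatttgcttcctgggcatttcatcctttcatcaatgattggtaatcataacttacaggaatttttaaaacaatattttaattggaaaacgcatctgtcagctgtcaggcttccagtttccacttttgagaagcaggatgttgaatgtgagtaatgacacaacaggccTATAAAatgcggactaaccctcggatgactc
The upstream sequence has none of the 4 motifs and 19 CpG. The downstream one has a TATA box that ends 26 bases before the start, 3 CpG and 39.2% G or C.

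SPRED1 is listed on chromosome 15 from 38544218 to 38650663, on the plus strand. It had the fewest trivalent nucleosomes of the Sprouty and Spred genes. Of 7 marked positions, from 204 bp upstream to 1669 bp downstream, 3 were trivalent, all downstream, at 149, 672 and 1119 bp. In the gene body 3 positions carried H3K9me3, at 53274, 58244 and 66534 bp, and 2 positions past the end of the locus carried H3K27me3. No H3K27ac was called beyond 2 kb of the TSS. SPRED1 and SPRED2 are of like length, 106446 and 121726 bp. SPRED1 thus had 5 repressive and no distal acetylated positions, and SPRED2 13 distal acetylated and no repressive ones.

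**Figure D4:**
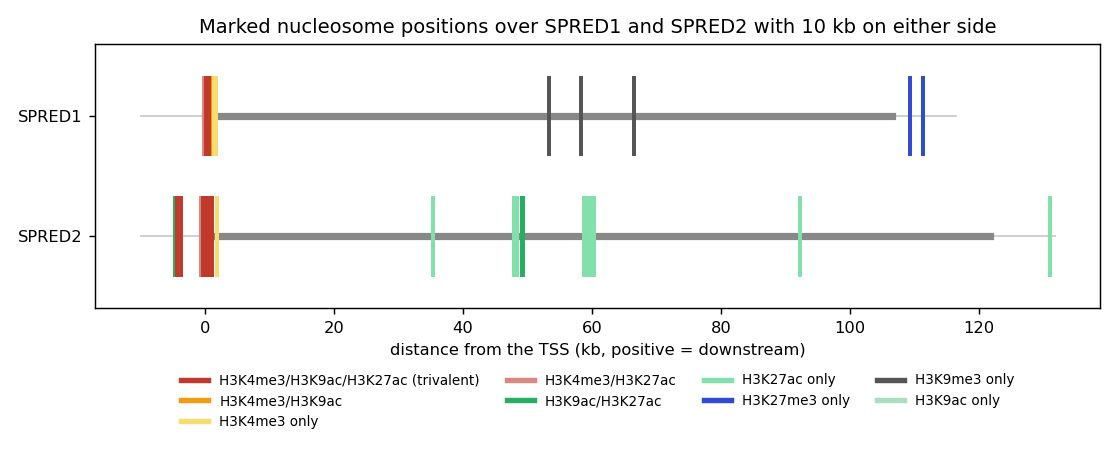
Marked nucleosome positions over SPRED1 and SPRED2 by distance from the TSS (kb), with the listed locus as a thick grey line, 10 kb on either side, and colours for the set of marks. Past the promoter SPRED1 shows 3 positions with H3K9me3 and, beyond the end of the locus, 2 with H3K27me3, while SPRED2 shows groups with H3K27ac near 48 and 60 kb.

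DUSP6 is listed on chromosome 12 from 89741837 to 89746296, on the minus strand. Within 2 kb of its TSS 14 of 15 positions were marked, 7 of them trivalent, 3 upstream and 4 downstream. Right upstream of the TSS, at 326 and 536 bp, the positions carried H3K27ac alone, and the spacing across the TSS was 500 bp, wider than in 81.0% of genes. Trivalent nucleosomes resumed at 1066 bp and reached 2321 bp upstream. At 384 and 564 bp downstream, 2 positions carried H3K9me3 beside all 3 activation marks, and so were not counted as trivalent. This combination was called at 114 positions of the whole map, against 42763 trivalent ones, and was found in the regions of 0.543% of all genes and 1.03% of expressed genes. A further pair of marked positions lay 7834 and 7966 bp downstream, with H3K4me3/H3K27ac and H3K27ac alone. An unnamed locus without strand begins 714 bp upstream of the TSS, with an FPKM of 0.412 and 0.326. The promoter of DUSP6 is shown as that of the most expressed phosphatase among the members (chr12:89352502-89352751, GRCh38, minus strand).
DUSP6: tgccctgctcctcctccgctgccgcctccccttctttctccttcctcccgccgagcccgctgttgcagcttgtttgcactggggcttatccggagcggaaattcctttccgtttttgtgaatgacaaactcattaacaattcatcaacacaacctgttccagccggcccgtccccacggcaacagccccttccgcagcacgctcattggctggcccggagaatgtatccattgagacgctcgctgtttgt
None of the 4 motifs was found in it with the exact letters searched, and 57.2% of its bases are G or C.

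DUSP5 and DUSP4 differed from the others in both expression and marks. DUSP5 is listed on chromosome 10 from 112257625 to 112271302, on the plus strand. Of 19 positions within 2 kb of its TSS 2 were marked, with H3K4me3/H3K9ac at 218 bp upstream and H3K27me3 at 1067 bp downstream. A single other position in the region carried a mark, H3K9me3, at 15482 bp. DUSP4 is listed on chromosome 8 from 29190414 to 29208318, on the minus strand. Of 16 positions within 2 kb of its TSS 5 were marked. H3K4me3 alone was at 486 bp upstream and 243 bp downstream, H3K4me3/H3K9ac was at 294 bp upstream, and H3K27me3 was at 1041 and 1491 bp downstream. The only other marked position of DUSP4 carried H3K9ac, 10751 bp downstream. H3K27ac was called at no position of either region.

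H3K4me3 and H3K27me3 were thus both within 2 kb of the TSS at 2 of the 8 genes, DUSP4 and DUSP5, against 3.02% of all genes and 1.09% of expressed genes. In both genes they lay on different nucleosomes, H3K4me3 around the TSS and H3K27me3 about 1 kb into the gene. H3K27me3, with or without H3K4me3 nearby, was within 2 kb of the TSS at 9.49% of all genes and at 1.6% of expressed genes, among them DUSP5. H3K9me3 was in the regions of 3 members (SPRED1, DUSP5 and DUSP6), against 28.9% of all genes and 26.3% of expressed genes. Whether both marks at DUSP4 and DUSP5 come from the same cells cannot be told apart in these libraries, which are averages over many cells.

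Trivalent nucleosomes lay more often downstream than upstream of the TSS, at the members as over all genes. Of the 45 trivalent nucleosomes of the members 30 lay downstream, or 66.7% (51.0 to 80.0), and without SPRY4 23 of 33, or 69.7% (51.3 to 84.4), against 75.2% over all genes and 76.5% over expressed genes. At least 3 downstream were found at 6 members, the selected SPRY4 among them, against 20.2% of all genes and 41.6% of expressed genes. All 3 of the genes with the highest FPKM, SPRED2, DUSP6 and SPRY4, had trivalent nucleosomes on both sides. SPRY2 did too at a lower FPKM, while SPRY1 and SPRED1 had them downstream only. Among H3K4me3 positions within 2 kb, 45 of 66 were trivalent at the members, or 68.2% (55.6 to 79.1), against 56.7% (56.1 to 57.2) at expressed genes. Without SPRY4, which was picked for its trivalent count, it was 33 of 52, or 63.5% (49.0 to 76.4).

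The other genes of the pathway were taken from 7 lists of 70 genes, all of which were found. Where a symbol had several rows, the row with the highest FPKM was taken. Of the 70 genes, 52 had an FPKM of at least 1. The TSS could be used for 46 genes, since the others share a row or coordinates with another gene or have several rows. Only these 46 are of the kind counted in the 13265 genes compared. Of them 33 had an FPKM of at least 1, against 47.7% of all genes. Of these 46 genes 22 had at least 3 trivalent nucleosomes, against 27.9% of all genes. All 22 were expressed, as were 3570 of the 3697 genes with at least 3 over all genes. Among the 33 expressed genes with a usable TSS, 22 had at least 3, against 56.4% of expressed genes. The median of these 33 genes was 3 trivalent nucleosomes, as over all expressed genes.

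Receptors were expressed for 10 of 13 genes. FGFR4, the main FGF receptor of hepatocytes, had the highest mean FPKM of them, at 89.1, with 5 trivalent nucleosomes, and FGFR3 followed at 61.4 with 2. ERBB3, a partner of the EGF receptor family, had 9 trivalent nucleosomes at 42.5, the most of the receptors and a count that IGF1R, the receptor of insulin-like growth factor, shared at a mean FPKM of 8.91. IGF1R is named for this tie, after its values were seen. Ligands were expressed for 1 of 10 genes, TGFA, a ligand of the EGF receptor, with a mean FPKM of 9.16 and 6 trivalent nucleosomes. HBEGF, another such ligand, came next at 0.773 with 1.

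All adaptors and exchange factors (7 of 7) were expressed, led by GRB2 at a mean FPKM of 58.5. SHC1 was at 41.9 on a row shared with PYGO2, and GAB1, a docking protein, had the most trivalent nucleosomes, 8, at 4.58. The RAS genes and their GTPase activators were all expressed (5 of 5). HRAS, listed on 2 rows with the same coordinates, had 13.4 on the higher one. All 8 genes of the list of kinases and the scaffold were expressed. MAPK3, which encodes ERK1, had 52.9 on a row shared with GDPD3, and the scaffold KSR1 had the most trivalent nucleosomes, 4, at 5.40.

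Other inhibitors were expressed for 9 of 13 genes. PEBP1, an inhibitor of the step from RAF to MEK, had a mean FPKM of 689 with 3 trivalent nucleosomes. DUSP9, a phosphatase related to DUSP6, gave 259 FPKM in run 1 and 253 in run 2, far above DUSP6, DUSP5 and DUSP4, and 0 trivalent nucleosomes within 2 kb of the listed TSS, where 1 position carried an activation mark. ERRFI1, an inhibitor of the EGF receptor, had 60.7 with 7. Targets of ERK signalling were expressed for 12 of 14 genes. SPHK1 had 95.3 with 0 trivalent nucleosomes within 2 kb of the listed TSS, although 12 positions in a row carried an activation mark within 5 kb. IER3, listed on 6 rows, had 87.3 on the highest one, which is shared with FLOT1. EGR1, an immediate early transcription factor, had the most trivalent nucleosomes, 6, at 2.14. H3K27me3 was within 2 kb of the TSS at 4 of the 46 genes, against 9.49% of all genes.

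**Figure D5:**
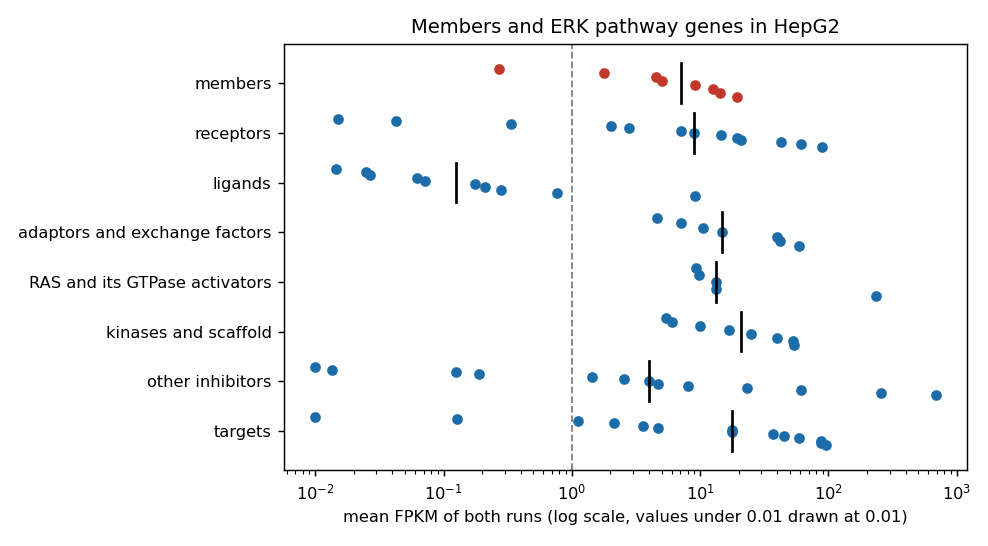
Mean FPKM of both runs (log scale) for the 8 members (red) and the 7 lists of ERK pathway genes (blue), each point a gene and each black bar the median of its list; the dashed line is an FPKM of 1. Ligands lie mostly below the line, with a median of 0.124, while the medians of the other lists run from 3.98 to 20.8.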

How the data were processed

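The data are 7 samples of HepG2, 1 per assay. The submitters' processing notes name BWA and hg19 for MNase-Seq and ChIP-Seq. By the study's methods, the authors called nucleosome positions with DANPOS and peaks at these positions with NUCLIZE, kept peaks with P and FDR at most 0.01 and at least 4-fold over input, and deposited coordinates with an identifier, so no score or depth per peak is given. The authors deposited RNA-Seq values as FPKM in 2 columns of a Cuffdiff layout, which sum to 857059 and 982212. TopHat2 2.1.0, Bowtie, HOMER 4.7 and edgeR are named in the notes for RNA-Seq, and the tool that made the FPKM values is not given in the sources used here. The deposited columns also hold the authors' comparison of the runs (log2 fold changes, p-values), which was not used. Read counts are not given. Among 1246 loci under 0.05 FPKM, the commonest ratio of run 1 to run 2 was 0.84 to 0.88, which gives no depth of either run.

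Each peak was assigned to the position whose identifier it carries, which it exceeded by 3 bp on either side. Marked in this way were 203848 of 14217311 positions on chromosomes 1 to 22, X and Y. This is fewer than the number of modified nucleosomes in the paper, and the reason was not tested. The strand of a locus was inferred from the order of locus numbers and was that of RefSeq for 8396 of 8426 genes. Genes with shared coordinates or symbols were left out, which left 13265. Distances are from the TSS to the midpoint of a position. Promoters are those of RefSeq on GRCh38.p14, which hold 6 of the 8 members (not DUSP4 and DUSP5). Their starts were not matched to the listed TSS on hg19. Counting was tested on simulated data, where the planted counts of 200 of 200 genes were recovered. The members and lists were chosen with earlier results of these data known. Named genes are the members, the 2 of each pathway list with the highest FPKM and the 1 with the most trivalent nucleosomes, and the 5 nearest to SPRY4 by pattern. Some genes that this rule names in the pathway lists are not reported here. Shares have exact (Clopper-Pearson) 95% intervals. Alternatives were marking by any overlap of 1 bp, windows of 1 and 5 kb, flanks of 0 and 20 kb, each run alone, FPKM limits of 0.1 and 5, and leaving out SPRY4. Values were computed with pandas 2.3.3 and numpy 2.4.6, intervals with scipy 1.17.1 and plots with matplotlib 3.10.9, under Python 3.11.15.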

Additional observations from a re-analysis of the deposited data

How the results depend on the processing

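The share of trivalent positions near the TSS of the members moved with the window: it was 42.2% within 1 kb and 14.6% within 5 kb, against 33.1% within 2 kb. The number of members with at least 3 trivalent nucleosomes was 3 within 1 kb, against 6. The share of positions with any mark fell to 4.22% with flanks of 20 kb, against 5.08%. Shares over all genes were not computed for these other windows and flanks. In the single genes, SPRY1 had 2, 5 and 12 trivalent nucleosomes within 1, 2 and 5 kb, so its count rests most on the window. The members' median FPKM stood above 68.3% of the genes compared but above only 45.7% of the loci with status OK, which turns its side of the middle. Counting the 2 DUSP6 nucleosomes with H3K9me3 as trivalent, a choice made after seeing the data, gave a share of 34.6%. Of 20 alternatives to the 5 main results, 16 stayed within the interval or within 1.5 times the count. The 20 include the unplanned choice on H3K9me3. The share with a repressive mark was 0.720% with any overlap of 1 bp, against 0.466%. It counts as unchanged because its interval is wide (0.233 to 0.832). The peak lists have no score, so no stricter limit on the calls was tried, and an unmarked position may be one where enrichment was below the authors' limits. No paired analysis was possible because each assay has 1 library.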
